A study of Petromyzon marinus and Lampetra planeri with 28 samples.

Results

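The regions described here are the peaks of open chromatin of the brook lamprey, Lampetra planeri, that had no counterpart among the open chromatin peaks of the sea lamprey, Petromyzon marinus. The members were chosen by position, from the peaks called in these data. A brook lamprey peak was counted as unmatched when it overlapped no sea lamprey peak and its edges lay more than 1000 bp from the edge of any. Of the 314377 brook lamprey peaks, 148523 (47.2%) met this rule. A further 71814 (22.8%) overlapped no sea lamprey peak but lay within 1000 bp of one and are called near, and 94040 (29.9%) overlapped one and are called matched. By the same rule turned round, 81486 (34.5%) of the 236315 sea lamprey peaks were unmatched.

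ATAC-seq uses a transposase that cuts and tags DNA where it is not wrapped tightly in nucleosomes, so that peaks of its reads mark promoters, enhancers and other accessible sequence. The dorsal neural tube is the source of the neural crest, a migratory cell population of vertebrate embryos that forms craniofacial skeleton, peripheral neurons, glia and pigment cells. Lampreys are jawless vertebrates, and their embryos are used to ask which parts of the neural crest programme predate the jaws.

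The brook lamprey peaks came from 10 libraries of untreated embryos collected from a river, covering 131 individuals. They comprised 3 libraries of dorsal neural tubes at Tahara stage T20, each pooled from 16 to 20 embryos, 4 at T21 pooled from 11 to 20, and 3 of heads at T23 pooled from 6. The sea lamprey peaks came from 9 libraries of untreated embryos made by in vitro fertilisation, covering 138 individuals. There were 3 libraries each of dorsal neural tubes at T20 and T21, pooled from 20 embryos each, and of heads at T23, pooled from 6. Gene counts were available for sea lamprey dorsal neural tubes only, in 3 libraries at T18 pooled from 30 embryos, 2 at T20 and 3 at T21 pooled from 35.

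Reads of both species were placed on the germline genome of the sea lamprey, and 1 peak list was deposited for each species, holding positions but no signal. A brook lamprey peak can therefore be seen only where brook lamprey reads align to sea lamprey sequence. The depth of the ATAC-seq libraries is not given in the sources used here, and no peak could be traced to a stage, a tissue or a library. Brook lamprey reads were aligned to the genome of another species and sea lamprey reads to that of their own. This difference, species, sampling and number of libraries go together between both lists and cannot be told apart. The authors down-sampled the merged reads to the lowest file, but whether across both species is not stated. How far depth or the share of aligned reads differed is not known. Total RNA-seq counts ranged between 12172421 and 91015285 per library. The neural crest genes Foxd3 and SOX10 were present at every stage of the dorsal neural tube, with the lowest normalised counts at T18 (10.3 to 27.5 for Foxd3 and 39.6 to 96.2 for SOX10) and the highest at T21 (1866 to 2288 and 4089 to 4243). At T20 replicates 1 and 2 had 215 and 642 for Foxd3 and 899.8 and 2761 for SOX10, further apart than the T21 libraries.

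Unmatched peaks were narrow. Their median width was 290 bp, with quartiles at 224 and 390 bp, against 401 bp (290 to 596 bp) for matched brook lamprey peaks. Near peaks, at 293 bp, were as narrow as the unmatched ones, and unmatched sea lamprey peaks had a median of 326 bp. The shortest width in the list, 199 bp, was held by 10.8% of unmatched and 4.42% of matched peaks, and widths above 1000 bp by 0.735% and 6.14%. Wide peaks overlap others more easily, so the rule itself bears on these widths and no test was made. Unmatched peaks covered 50.2 Mb in all, against 46.2 Mb for the matched ones.

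**Figure D1:**
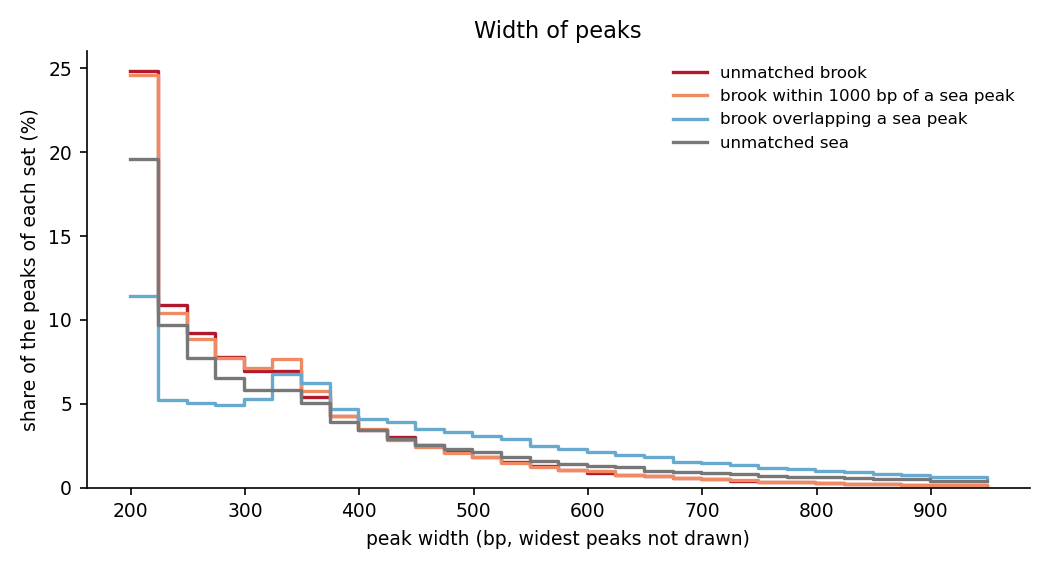
Distribution of peak width in bp for unmatched, near and matched brook lamprey peaks and unmatched sea lamprey peaks, as the percentage of each set per width bin. The unmatched brook lamprey peaks, with a median of 290 bp, lie to the left of the matched ones, with a median of 401 bp.

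The widest unmatched peak spanned 3062 bp (scaf_03776, 5194 to 8255) and lay outside the loci used for annotation, 3279 bp from the nearest sea lamprey peak. The second, of 2473 bp (scaf_00022, 9070668 to 9073140), lay in an intron of PIK3CG, which encodes a catalytic subunit of a phosphoinositide 3-kinase. The widest matched peak reached 8436 bp.

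The distance to the nearest sea lamprey peak, which the rule used, had a median of 2458 bp with quartiles at 1641 and 3834 bp. Unmatched sea lamprey peaks lay a median of 1956 bp from the nearest brook lamprey peak. Distances of 1000 to 2000 bp were held by 37.1% of unmatched brook lamprey peaks, 2000 to 3000 bp by 37011 of them, 3000 to 5000 bp by 24.0%, 5000 to 10000 bp by 12.6% and 10000 to 20000 bp by 1.31%. Another 537 peaks lay on 242 scaffolds that had no sea lamprey peak at all. Of the unmatched sea lamprey peaks, 5831 lay on 1856 scaffolds that had no brook lamprey peak. Such peaks have no distance and are left out of both medians and of the shares above. The 5 farthest peaks, at 61009 to 70133 bp, all lay in intergenic sequence within 10 kb of one another on scaf_00297.

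**Figure D2:**
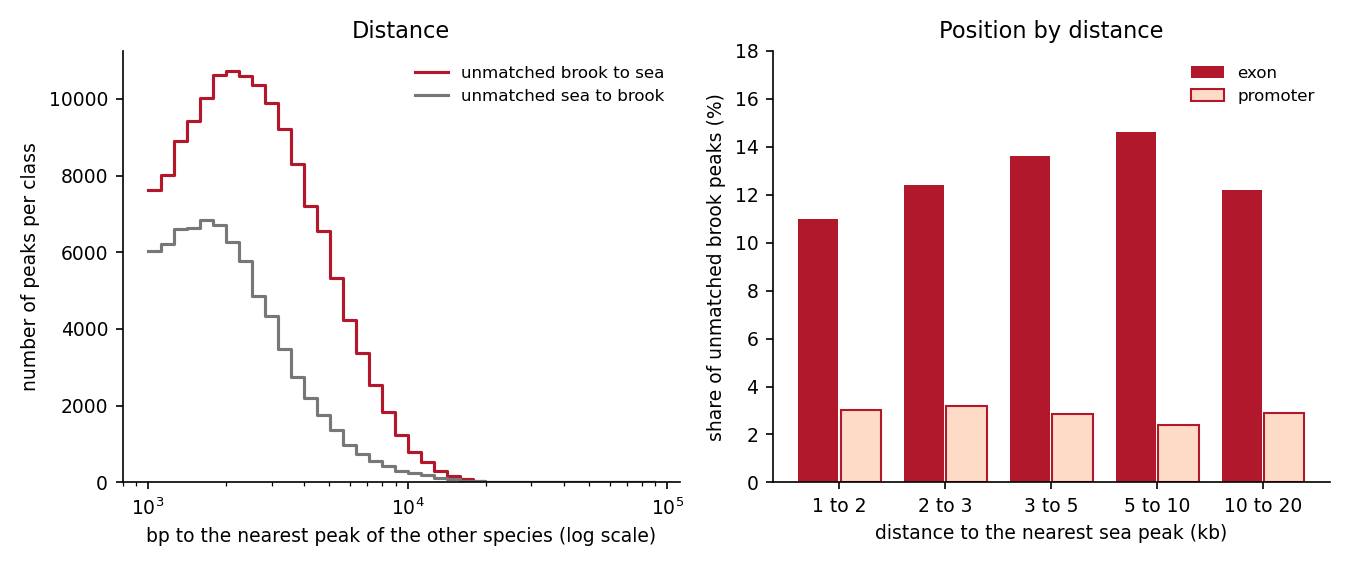
Left, number of unmatched peaks per class of distance in bp to the nearest peak of the other species (log scale), for brook and sea lamprey; right, percentage of unmatched brook lamprey peaks in exons and at promoters per class of distance in kb. Both sets start above 1000 bp by the rule, the brook lamprey median is 2458 bp and the sea lamprey median 1956 bp. The exon share is 11.0% in the nearest class, 14.6% at 5000 to 10000 bp and 12.2% at 10000 to 20000 bp.

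The threshold cut through a continuous distribution. Between 1001 and 1100 bp there were 6239 unmatched peaks with a median width of 294 bp, and between 901 and 1000 bp there were 6531 brook lamprey peaks with a median of 297 bp. Just inside the threshold, at 1001 bp, lay a peak 927 bp upstream of a transcript start of ARHGAP39 (scaf_00001, 500098 to 500363). A peak at exactly 1000 bp, on scaf_00001 at 18772126 to 18772517, was left out.

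Position relative to genes was taken from the centre of each peak and from 25294 assembled loci of known strand and at least 1500 bp. The promoter was taken as 1000 bp before to 100 bp after a transcript start. Of the unmatched peaks, 61510 (41.4%) lay in introns, 60197 (40.5%) between loci, 18448 (12.4%, 95% Wilson interval 12.3 to 12.6%) in exons, 4365 (2.94%, 2.85 to 3.03%) at promoters and 4003 (2.70%) at transcript ends. These intervals cover counting error only, and peaks that share a locus or a library are not independent, so no test was made.

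Relative to matched peaks, the unmatched ones lay more often in exons and less often at promoters. Exons held 12.4% of unmatched, 9.02% of near and 7.43% of matched brook lamprey peaks, and promoters held 2.94%, 4.38% and 7.05%. Unmatched sea lamprey peaks gave a different pattern, with 5.12% in exons, 4.95% at promoters and 51.9% between loci. The higher exon share was thus not shared by the sea lamprey peaks that lacked a brook lamprey counterpart.

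**Figure D3:**
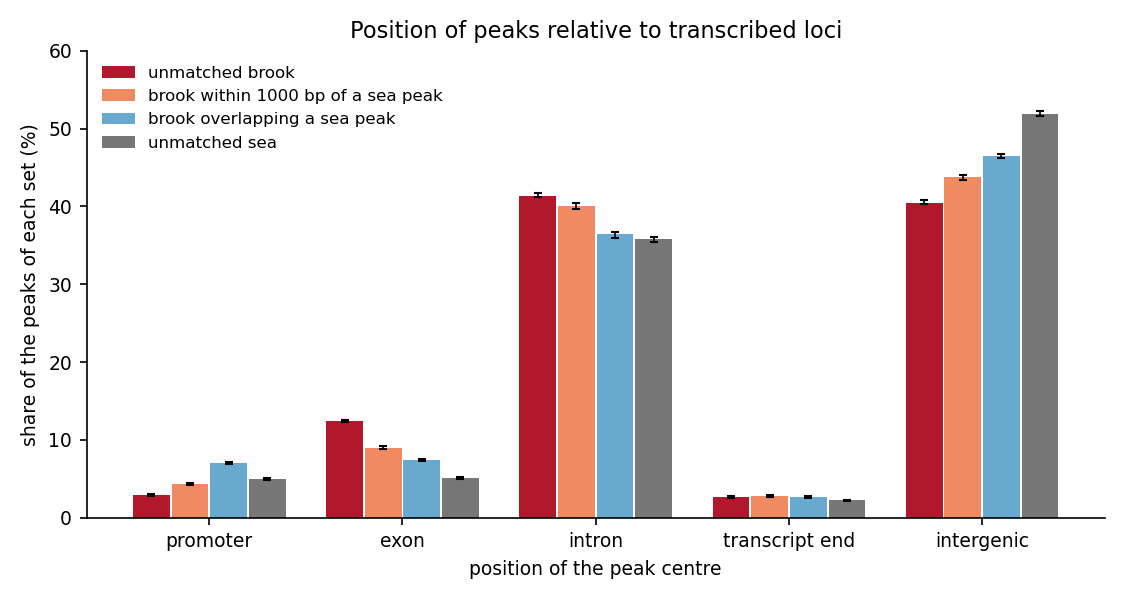
Percentage of peaks at promoters, transcript ends, exons, introns and intergenic sequence for unmatched, near and matched brook lamprey peaks and unmatched sea lamprey peaks, with 95% Wilson intervals. The exon share is 12.4% in unmatched and 7.43% in matched brook lamprey peaks, and the promoter share is 2.94% and 7.05%.

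Read the other way, 57.8% of all brook lamprey peaks in exons were unmatched, against 49.4% in introns, 47.1% at transcript ends, 44.5% in intergenic sequence and 30.9% at promoters. Of the sea lamprey peaks, 29.0% of those in exons and 28.5% of those at promoters were unmatched. The exon share stayed between 11.3% and 15.1% over 6 classes of width in unmatched peaks, and between 6.88% and 8.75% in matched peaks of the same classes. It was 11.0% in peaks 1000 to 2000 bp from a sea lamprey peak and 14.6% in those at 5000 to 10000 bp. Among the 1935 peaks at 10000 to 20000 bp it was lower again, at 12.2%.

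The exons that held unmatched peaks were mostly not the first exons of their transcripts. Internal exons held 46.0% of exonic unmatched peaks, last exons 37.7%, first exons 10.3% and the exons of unspliced transcripts 6.03%. Of the exonic near peaks, 44.7% lay in internal, 31.5% in last and 16.3% in first exons, closer to the unmatched than to the matched ones. Of the exonic matched peaks, 33.5% lay in internal, 27.3% in last and 29.7% in first exons. Exonic unmatched sea lamprey peaks resembled the matched ones in this, with 29.2% in first exons. Peaks classed at promoters are not among the exonic ones, which bears on the shares in first exons.

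**Figure D4:**
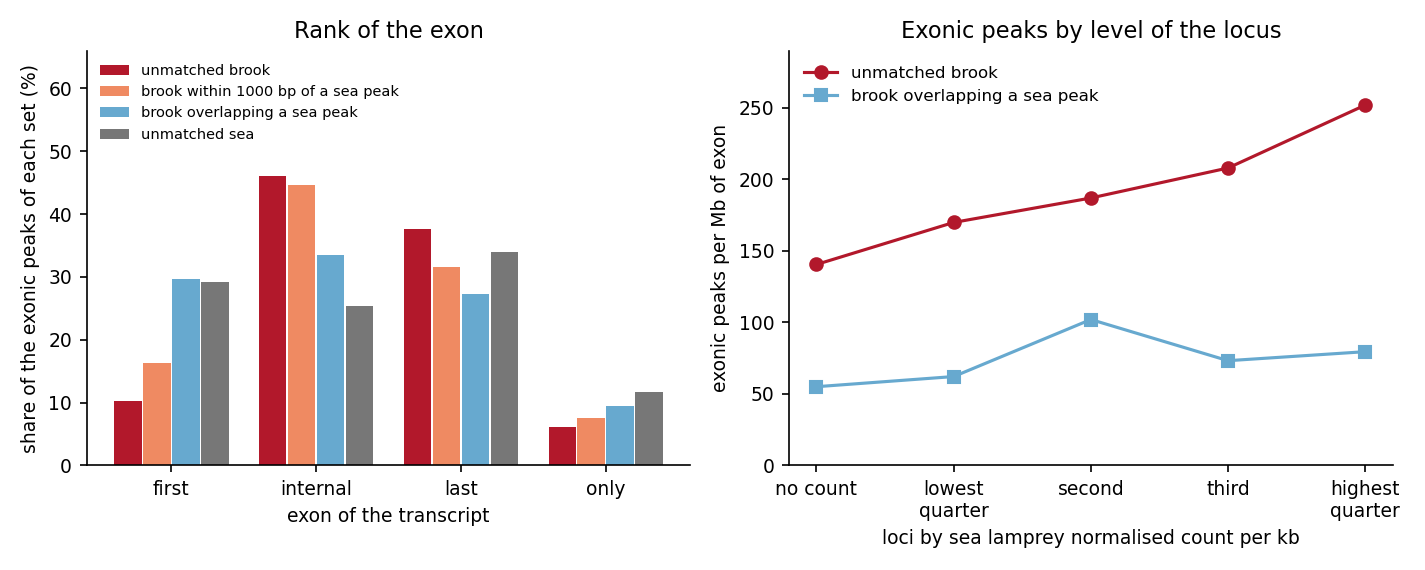
Left, percentage of exonic peaks in first, internal, last and only exons for unmatched, near and matched brook lamprey peaks and unmatched sea lamprey peaks; right, exonic unmatched and matched brook lamprey peaks per Mb of exon in loci with no sea lamprey count and in 4 equal classes of level per kb. First exons hold 10.3% of exonic unmatched and 29.7% of exonic matched peaks, and the density of unmatched peaks is 252 per Mb in the highest class and 140.5 per Mb in loci with no count.

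Per length of sequence, exons held 213 unmatched peaks per Mb and introns 131 per Mb. Matched peaks were nearly even, with 80.7 per Mb of exon and 72.9 per Mb of intron, and unmatched sea lamprey peaks were sparser in exons (48.3 per Mb) than in introns (62.1 per Mb). Peaks classed at promoters or transcript ends are not in these densities, though the exon length includes all exon bases. At promoters this left out 7.05% of matched and 2.94% of unmatched brook lamprey peaks. Without that order, 20.6% of unmatched and 16.7% of matched peaks touched an exon with any base, a smaller contrast, and matched peaks were wider. Exonic bases made up 13.9% of the bases of unmatched and 9.51% of those of matched peaks. How well exons and introns of brook lamprey align to the sea lamprey sequence could not be measured from these files, and its part in these densities was not tested.

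Intronic unmatched peaks lay closer to exons and less often in the first intron than matched ones, with near peaks in between. Within 500 bp of an exon lay 22.1% of unmatched, 20.2% of near and 17.1% of matched intronic peaks. In a first intron lay 53.6%, 58.2% and 61.9%. For unmatched sea lamprey peaks these shares were 13.8% and 58.4%. Of the intergenic unmatched peaks, 4.88% fell on another assembled transcript, against 5.68% of the near and 11.6% of the matched ones. The median distance to the nearest transcript start, over all positions, was 11881 bp for unmatched, 11287 bp for near and 9755 bp for matched peaks. In both of these, near peaks were closer to unmatched than to matched ones.

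The order of unmatched peaks along the scaffolds was described without a test. Membership was set by distance from sea lamprey peaks, so neighbours in the same gap between sea lamprey peaks tend to be unmatched together. Runs also arise wherever a share as large as 47.2% of the peaks is taken. With the brook lamprey peaks taken in order along each scaffold, the 148523 unmatched ones formed 58038 runs uninterrupted by other brook lamprey peaks. Their median length was 2 peaks, and 15.5% of the unmatched peaks stood alone. Sea lamprey peaks could lie inside a run. Runs of at least 10 numbered 782 and held 6.22% of the peaks. The longest held 24 peaks over 68.8 kb (scaf_00050, 1553274 to 1622043) and overlapped 1 unnamed locus of 2706 normalised counts on average. A run of 23 peaks (scaf_00046, 8922571 to 9003378) overlapped 2 loci annotated as Neogenin and RBM25, 1 of them also as Dcc. Dcc and Neogenin are receptors for the guidance cue netrin and related ligands. Another of 23 peaks (scaf_00013, 14116450 to 14167775) touched no locus. These runs were not free of sea lamprey peaks, of which 10 lay inside the run on scaf_00050, 5 on scaf_00046 and 3 on scaf_00013.

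The unmatched share differed between scaffolds. Over the 123 scaffolds with at least 200 brook lamprey peaks its median was 49.8%, the lowest value was 23.4% (scaf_00101, 75 of 320 peaks) and the highest 65.4% (scaf_00099, 233 of 356 peaks). Sea lamprey peaks numbered 310 on scaf_00101 and 198 on scaf_00099.

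At least 1 unmatched peak lay inside 17687 (69.9%) of the 25294 loci, and 1101 loci held 20 or more. Gene names were available only for loci in the study's annotated lists, which hold loci that changed or clustered, so named loci are not a sample of all. Among 4924 named loci, 4322 (87.8%) held at least 1. The most inside any 1 locus was 102. Among named loci, the locus annotated as Myg1, lrrc3b and C12orf10, of 545735 bp, held 95 unmatched and 40 matched peaks. The locus annotated as Man1a1 and MAN1A2, Golgi mannosidase genes, held 75 and 37. Plch2, a phospholipase C gene, held 73 and 10, and 6 of the 73 lay in exons.

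The locus annotated as PDE10A and as the glutamate receptor genes Grik1 and GRIK2 held 68 unmatched and 27 matched peaks. DIAPH1, a formin that nucleates actin filaments, and CASKIN1, a scaffold protein of synapses, each held 64 unmatched peaks. COL22A1, a collagen gene, and DMD, the dystrophin gene, each held 62. The loci FSD2/IQGAP1/Sv2c and CCDC146/H3v1/Ptpn12 held 60 each, Abcb1b/Fbln5 and axin1, a scaffold of the complex that degrades β-catenin, 57 each, TMEM104 56, TRIB2/PXDN/PKIA 55 and RAPGEF2 54. Their levels covered a wide range per length of exon, with COL22A1 at 1928 normalised counts per kb and the Grik1/GRIK2/PDE10A locus at 5.86 per kb.

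Peaks inside exons were spread over many genes. An exonic unmatched peak lay in 11272 loci (44.6%), an exonic matched peak in 6390 (25.3%) and both in 3082. No locus held more than 16 exonic unmatched peaks.

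The counts of sea lamprey dorsal neural tubes were then read for the loci next to these peaks. The start of 20625 loci was the nearest to at least 1 unmatched peak. Their median level was 78.9 normalised counts (29.0 per kb of exon), against 76.1 (31.8 per kb) for the 20324 loci nearest to a matched peak and 60.6 (26.7 per kb) for all 25294. The loci nearest to unmatched peaks took 88.1 to 88.6% of the counts of each library. Most loci belonged to both sets, so this readout barely separates them.

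Loci with exonic unmatched peaks had a median level of 62.8 normalised counts per kb in the sea lamprey, against 50.4 per kb for loci with exonic matched peaks and 26.7 per kb for all loci. Both sets shared 3082 loci, and the 8190 with exonic unmatched and no exonic matched peak had a median of 48.4 per kb. Loci with exonic unmatched peaks took 69.6 to 70.7% of the counts of each library, and loci with exonic matched peaks 37.2 to 38.9%. The first set is larger, with 11272 loci against 6390. Its median exonic length was 5479 bp, against 4946 bp in the second set and 3122 bp over all 25294 loci, and both bear on these shares. In loci with counts, split into 4 equal classes of level per kb, exonic unmatched peaks numbered 169.9, 187, 208 and 252 per Mb of exon, lowest class first, and 140.5 per Mb in loci with no count. Exonic matched peaks had no such order, with 62.1, 102, 73.2 and 79.5 per Mb.

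Promoters gave another picture. The 3669 loci with an unmatched promoter peak had a median of 25 normalised counts per kb, near the 26.7 per kb of all 25294 loci. The 2201 of them with no other brook or sea lamprey peak at a promoter had a median of 8.97 normalised counts per kb, near that of the 9660 loci with no promoter peak in either species (10.7 per kb). Loci with a matched promoter peak had a median of 67.6 per kb, and those with a sea lamprey promoter peak 58.8 per kb. The share of loci whose promoter held unmatched peaks alone was 12.6%, 10.2%, 6.58% and 5.02% in the 4 classes of level, lowest first, and the share with a sea lamprey promoter peak 27.8%, 41.1%, 57.5% and 58.0%. This is a description over loci, and both shares refer to peaks of embryos pooled over stages. A locus with a sea lamprey promoter peak cannot enter the first share, so part of its fall with level is set by the rise of the second. The median of 8.97 per kb is likewise of loci without a sea lamprey promoter peak. How far this exclusion accounts for that median was not tested.

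Some highly expressed loci had an unmatched promoter peak all the same. The 10 of highest level among the named were led by a locus annotated as actb, the β-actin gene, and also as FBXL18 and SMIM11 (48234 normalised counts on average). Which of these genes the promoter peak belongs to, and the share of each in the counts, were not examined. Next were HMGB1, a chromatin protein (39059), RPL7, a ribosomal protein (38963), PRTG, an immunoglobulin superfamily receptor (25270.1), and sumo3, a protein modifier (22166). They were followed by Eif4g3, a translation initiation factor (18705), Sptbn1, a spectrin (16678), the laminin locus epi-1 (15597), Nop56, a nucleolar protein (14832), and HSP90B1, a chaperone of the endoplasmic reticulum (14208). At epi-1, Sptbn1, sumo3, HSP90B1 and Nop56 no sea lamprey peak lay at a promoter.

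The study's transcription factors of the neural crest, its signalling ligands and the Hox genes were examined locus by locus. Hox genes pattern the head-to-tail axis, and Wnt, BMP and FGF ligands induce the neural plate border. Of 34 loci of neural crest transcription factors, 27 held an unmatched peak and 25 an exonic one. Their 188 unmatched and 178 matched peaks gave a ratio of 1.06, against 1.44 for 33 ligand loci, 1.57 for 21 Hox loci, 2.09 for 213 loci of adhesion, matrix and guidance, 1.81 for 63 neuronal loci and 2.06 for all named loci. The neural crest factors thus had the lowest ratio of the lists, a description since lists and names were chosen with results of these data known.

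Of 88 loci in the neural crest, ligand and Hox lists, 20 had an unmatched peak at a promoter, and 13 of these had no sea lamprey peak there. Among all 4924 named loci, 944 had an unmatched promoter peak. Of the 20, 11 had no other promoter peak in either species, against 2201 of 3669 over all loci, so these loci are shown as examples. The 13 were hox-epsilon8, hox-alpha4, hox-alpha6, HOXB1, HOXC9, Bmp7, the GDF10 locus, Wnt7b, Gdf7, Fgf3, TEAD4, 1 of the TWIST1 loci and ETS1. At TEAD4 and hox-epsilon8 a near brook lamprey peak also lay at a promoter. Some of the unmatched promoter peaks lay just past the threshold. The nearest sea lamprey peak was 1070 bp away at Fgf3, 1073 at HOXC9, 1081 at Gdf7 and 1229 at Wnt7b. It was 1062 and 2703 bp from the Bmp7 peaks, and 1103, 2610 and 4640 bp from those of TEAD4. At GDF10 it was 2423 bp away, TWIST1 2920, hox-alpha4 3354, ETS1 4351, HOXB1 4370, hox-alpha6 9008 and 9505, and hox-epsilon8 12268. ETS1 (XLOC_003893), the lowest of the 13 with a mean of 6.38 normalised counts, was left out of the values below. It had 2 counts at T18 and 44 at T21, and was higher at T21 (adjusted p = 0.0077). ETS1 had a value under 8 alternative settings of the test only, where Gdf7 had one under 14. Its level at T21 over T18 was 32.5 (counting interval 8.99 to 268). The paper reports Ets1b as lower at T21 than at T18, and whether this locus is Ets1b was not examined. The RNA-seq values of the other 12 loci follow. They are given at T18, T20 and T21 as normalised counts per library, with log2 fold changes of T21 over T18 and their SE.

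The Hox loci among them were lower at T21 than at T18. hox-alpha4 (XLOC_005121), whose promoter peak was centred 61 bp upstream of a transcript start (scaf_00004, 19639156 to 19639732), had 1269, 1163 and 1093 normalised counts at T18, 223 and 194 at T20, and 91.4, 49.0 and 38.5 at T21. It fell by 4.45 on the log2 scale (SE 0.25, adjusted p = 6.7e-08), and no stages overlapped. The hox-alpha6 and hox-alpha5 locus, with 2 promoter peaks (scaf_00004, 19603498 to 19603759 and 19603872 to 19604256), had 793, 711 and 776 at T18, 151 and 153 at T20, and 171, 118 and 65.5 at T21. It fell by 2.79 (SE 0.27, adjusted p = 8.1e-06), while T20 and T21 overlapped.

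The hox-epsilon8 and hox-epsilon7 locus had 231, 181 and 219 normalised counts at T18, 19.4 and 33.5 at T20, and 9.73, 6.12 and 11.8 at T21, a fall of 4.40 on the log2 scale (SE 0.34, adjusted p = 7.6e-07). HOXB1 (peak on scaf_00015, 2656036 to 2656614) had 129.9, 228 and 234 at T18, 106 and 80.1 at T20, and 31.1, 21.4 and 27.8 at T21. It fell by 2.90 (SE 0.32, adjusted p = 1.4e-05), and every stage was apart from the others. HOXC9, whose promoter peak of 1218 bp was the widest of these (scaf_01591, 14973 to 16190), had 33.7, 40.5 and 56.8 at T18, none at T20, and 3.89, 0 and 0.370 at T21. With 3 counts at T21 and 286 at T18, its level at T18 over T21 was 64.6 (95% counting interval 22.1 to 313).

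Ligand loci went both ways. Gdf7, a BMP family ligand of the dorsal neural tube in mouse and chick (peak on scaf_00002, 3016846 to 3017471), had 3.75, 3.30 and 13.8 normalised counts at T18, 100.1 and 95.0 at T20, and 1228, 1190.2 and 1167 at T21. It rose by 6.98 on the log2 scale (SE 0.32, adjusted p = 2.6e-08) with no overlap between stages. Bmp7 (peaks on scaf_00002, 8689689 to 8689896 and 8691123 to 8691537) had 92.4, 60.3 and 32.4 at T18, 420.0 and 480.4 at T20, and 782, 744 and 781 at T21. It rose by 3.73 (SE 0.29, adjusted p = 2.5e-06). Wnt7b, with a peak centred 9 bp upstream of its start, had 376, 183 and 108 at T18, 1115 and 773 at T20, and 798, 941 and 723 at T21. It rose by 1.92 (SE 0.42, adjusted p = 0.011), and without the filter on low counts its adjusted p was 0.062.

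Fgf3 (peak on scaf_00002, 22595742 to 22596056) had 43.7, 372 and 515 normalised counts at T18, 1.49 and 9.31 at T20, and 0, 6.12 and 3.33 at T21, a fall of 6.53 on the log2 scale (SE 1.16, adjusted p = 0.0037). The locus annotated as lamtor3 and GDF10 had 3272, 3390.2 and 3528 at T18, 1646 and 1683 at T20, and 1457, 1366 and 1515 at T21, and fell by 1.25 (SE 0.08, adjusted p = 1.7e-07). It carries both names, and the share of each gene in its counts is not known.

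Of the transcription factors, TWIST1 (XLOC_018854), with a promoter peak on scaf_00016 at 13139506 to 13139757, had 2614, 2772 and 2728 normalised counts at T18, 928 and 240.2 at T20, and 75.9, 73.4 and 68.5 at T21, and fell by 5.25 on the log2 scale (SE 0.51, adjusted p = 3.3e-04). A second TWIST1 locus, XLOC_006540, with a sea lamprey promoter peak, changed by -0.20 (SE 0.21, adjusted p = 0.53). TEAD4, a partner of the Hippo pathway co-activator YAP, had 351, 279 and 335 at T18, 561 and 356 at T20, and 516, 431 and 578 at T21. It rose by 0.65 (SE 0.19, adjusted p = 0.016), and the adjusted p was 0.084 once T18 replicate 2 was left out, 0.05 or 0.091 once replicate 1 or replicate 3 of T21 was, and 0.054 with upper quartile scaling.

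**Figure D5:**
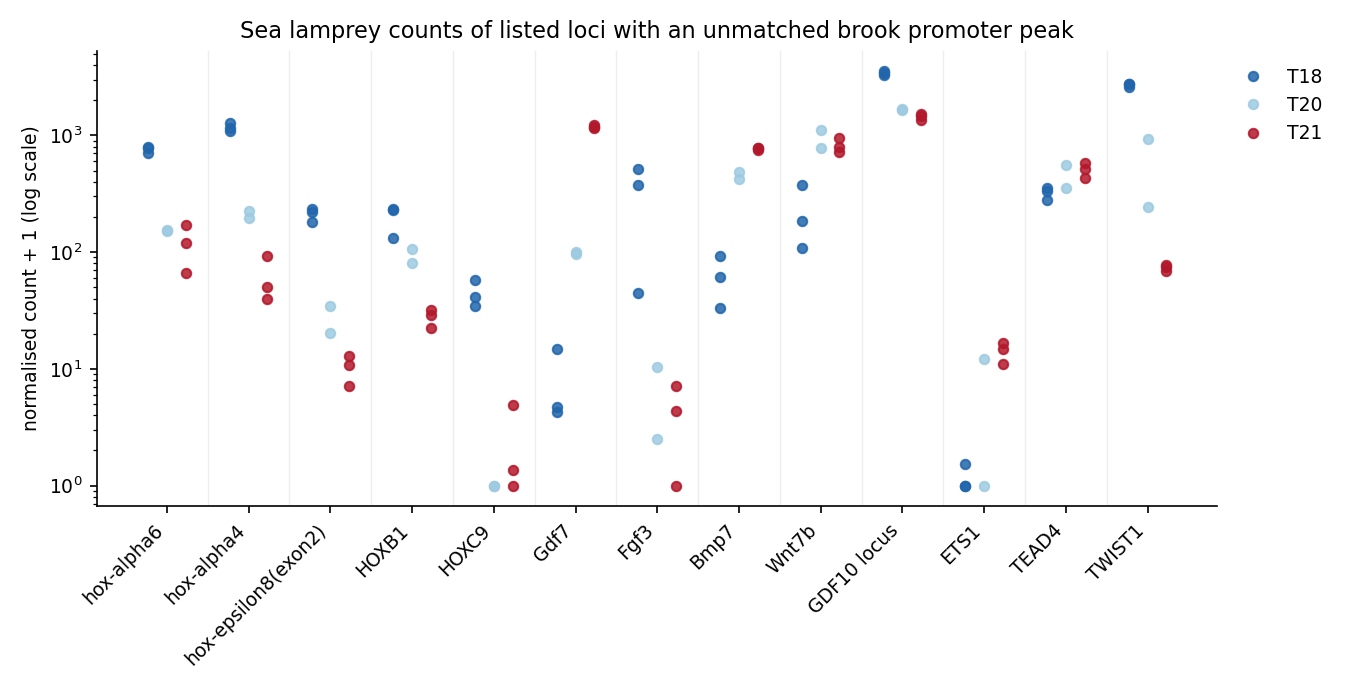
Normalised counts + 1 (log scale) of sea lamprey dorsal neural tubes at T18, T20 and T21 for 13 listed loci with an unmatched brook lamprey promoter peak and no sea lamprey promoter peak, with 1 point per library. The Hox loci and TWIST1 lie lower at T21 than at T18, Gdf7 and Bmp7 higher.

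The lists differed in how many of their loci were higher or lower. At T21 relative to T18, 4 Hox loci were higher and 13 lower of 18 tested, 20 ligand loci higher and 8 lower of 31, and 23 neural crest factor loci higher and 6 lower of 32. Of the 4457 named loci tested that held or were nearest to an unmatched peak, 2497 were higher and 1128 lower, against 18.9% higher and 14.7% lower of all 25317 loci tested. Since the names came from lists of loci that changed, these counts describe the lists. Among the loci of other cell types, the 5 tested of notochord and endoderm were all lower at T21, 8 of 13 of mesoderm and muscle were lower, 2 of 4 of blood and vessel were lower and 9 of 11 of epidermis higher. Of 15 ribosomal protein loci, 2 were higher and 9 lower. Their part in the values above was not tested.

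Stage comparisons over all loci nearest to an unmatched peak were close to the background of loci of the same kind. At T21 relative to T18, 3748 of 14780 tested were higher (25.4%) and 2758 lower (18.7%), against 23.4% and 18.2% of tested loci of at least 1500 bp. At T20 relative to T18, 2203 were higher (14.9%) and 1248 lower (8.44%), against 13.6% and 8.11%, where 10.8% and 6.51% of all tested loci were called. At T21 relative to T20, 1126 were higher (7.62%) and 883 lower (5.97%), against 6.95% and 5.69%, and 5.40% and 4.40% of all. These comparisons share libraries.

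The split of the calls depended on the scaling. With upper quartile scaling, 3146 loci were higher and 3949 lower at T21 than at T18, so that 44.3% of calls were higher, against 57.6% with TMM. At T20 relative to T18 the counts became 1807 and 1999, and at T21 relative to T20 1057 and 1188 (47.1% higher, against 56.0% with TMM). Over the whole table, this scaling set the middle log2 fold change at -0.18 for T21 over T18, -0.11 for T20 over T18 and -0.03 for T21 over T20. With TMM these values were -0.03, -0.00 and 0.01. Single libraries weighed on the smaller comparisons. Leaving out a T20 library leaves 1 at that stage, with no spread of its own, so counts of called loci from those fits are not given. With any 1 of the T21 libraries left out, 639 to 663 loci were higher and 393 to 461 lower at T21 than at T20, and 585 were lower without T18 replicate 2.

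The largest rises at T21 relative to T18, among named loci nearest to an unmatched peak, were of Ambp/Col6a4, a collagen VI locus (log2 fold change 11.16, SE 0.25, adjusted p = 4.8e-10), Sox9, a transcription factor of the neural crest and cartilage (10.92, SE 1.17, adjusted p = 7.8e-04), Cdcp2 (10.61), WNT3 (10.13) and IL17B, which had no count at T18 and was at least 79.3-fold higher. The WNT3 value is of XLOC_028782, and 3 loci carry that name. Another of them, XLOC_004999, rose less, with 115, 86.7 and 437 normalised counts at T18 and 1088, 1172 and 1331 at T21. Sox9 had 5.00, 0 and 1.35 normalised counts at T18, 16.4 and 305 at T20, and 3333, 3317 and 3294 at T21, and 4 of the 5 unmatched peaks inside it were exonic. The largest falls were of tbx6, a T-box factor of presomitic mesoderm (-9.22, SE 0.70, adjusted p = 1.6e-05), Psmc3ip (-7.69), SIX3, a factor of the anterior neural plate (-6.79), NDUFA13 (-6.74) and FOXA2, a factor of floor plate and endoderm, which had no count at T21 and was at least 135-fold higher at T18 (adjusted p = 0.014, 0.086 with a replicate block and 0.09 when low counts were not filtered).

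At T20 relative to T18 the largest rises were of COL6A2 (log2 fold change 7.44), a collagen VI gene, Fos (9.16), Ambp/Col6a4 (8.40), WNT3 (7.43) and IL17B, at least 26.7-fold. The WNT3 locus was again XLOC_028782. Fos, an immediate early gene, had 0, 1.65 and 1.08 normalised counts at T18, 840.1 and 475 at T20, and 48.6, 155 and 146 at T21, and so was highest in both T20 libraries. The largest falls were of tbx6 (log2 fold change -6.66), Fgf3 (-5.95, adjusted p = 0.025), NDUFA13 (-4.94), Psmc3ip (-4.80) and the locus zgc110179/Cdx1 (-4.39), Cdx1 being a homeobox gene of the posterior axis. Fgf3 lost its call without the filter on low counts (adjusted p = 0.13). It also lost the call without either T20 library, in fits that leave 1 library at that stage.

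At T21 relative to T20 the largest rises were of CadN, a classical cadherin gene (236 times the T20 level, counting interval 65.3 to 1948), the locus named Embryonic (log2 fold change 7.55), Fat4, an atypical cadherin (6.00), ATOH1, a proneural factor (5.80), and CAV1, the gene of caveolin (48.1 times, 16.5 to 233). ATOH1 had 5.00, 0 and 0 normalised counts at T18, 8.97 and 1.86 at T20, and 304, 311 and 361 at T21, and had an unmatched but no sea lamprey peak at its promoter. Large falls were of SIX3 (log2 fold change -4.55, adjusted p = 0.0067), skap-epsilon/hox-epsilon1 (-3.77), Stard13 (-3.50) and GATA6, a factor of heart and endoderm (-3.40). SIX3 lost its call without either T20 library, in fits that leave 1 library at that stage.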

How the data were processed

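ATAC-seq was made from brook and sea lamprey embryos and RNA-seq from sea lamprey dorsal neural tubes, and from heads and whole embryos at T20. Reads of both species were placed on the sea lamprey germline genome by the authors, using Bowtie2. After Picard 1.83 had removed duplicates, the replicates of a stage were merged and down-sampled, and the authors called peaks with MACS2 and merged them with bedtools 2.15.0 into 1 deposited list per species, which holds coordinates only. The RNA-seq reads were aligned with STAR 2.4.2 and loci assembled with Cufflinks. The deposited counts per locus come from featureCounts 1.4.6-p4, which used strand and counted reads that map to several places, so that near-identical copies share reads. The deposited normalised counts (signal) are the authors' counts divided by DESeq2 1.8.2 size factors. Normalised counts per kb were divided by exonic length.

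Positions are 1-based. Loci were tested with the quasi-likelihood test of edgeR 4.0.16 in R 4.3.3 (TMM scaling, default filter on low counts, 1 fit of all 8 libraries, 25317 loci), with Benjamini-Hochberg adjustment and a threshold of 0.05. All adjusted p-values in the text are of this test, two-sided, in this main fit unless another setting is named with the value. Replicates are pools of embryos, and nothing says that pools of a stage came from separate clutches, so p-values measure the spread between these pools. No locus was tested on brook lamprey material. Gene names are those of the study's annotated locus lists, in part shortened.

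The named loci are the 15 of those with a name that hold most unmatched peaks, the 10 of highest level with an unmatched promoter peak, per comparison the 5 largest rises and 5 largest falls past the threshold with no overlap between stages and a mean of at least 50 normalised counts, and at most 12 listed loci with values. Of these, 1 locus is not reported here. The widest, farthest and longest-run regions and those beside the threshold are named as extremes. The members and lists were chosen with earlier results of these data known. Loci with 3 or fewer counts at a stage were given a bound or a counting interval. Alternatives covered the distance rule, promoter length, annotated loci, overlap in place of the peak centre, width, scaling, filter, DESeq2 1.42.0, leaving out each library and a replicate block. Counts of the library of T20 heads and whole embryos were not used here, since it has no column in the count table. The loci used for positions were assembled by the authors from the dorsal neural tubes together with reads of T20 heads and whole embryos.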

Additional observations from a re-analysis of the deposited data

How the results depend on the processing

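A rule of 0, 2000 or 5000 bp in place of 1000 bp changed the set itself, and left 93694 unmatched peaks at 2000 bp and 21196 at 5000 bp. At 0 bp, where near peaks are included, 3.41% lay at promoters, 11.3% in exons, 41.0% in introns and 41.6% between loci, with a median width of 291 bp, a median distance of 1664 bp and a median level of the nearest loci of 71.0 normalised counts. At 2000 bp exons held 13.2% and intergenic sequence 40.0%, with medians of 287 bp, 3374 bp and 92.0 normalised counts. At 5000 bp the shares at promoters, in exons, in introns and between loci were 2.39%, 14.0%, 39.5% and 41.5%, and the medians 283 bp, 6448 bp and 121 normalised counts. In the same order of positions, a promoter of 2000 bp before the start gave 5.33%, 12.1%, 40.4% and 39.6%, one of 500 bp gave 1.75%, 12.7%, 41.9% and 40.8%, every locus gave 3.24%, 14.7%, 40.4% and 38.8%, and any overlapping base in place of the centre gave 3.96%, 16.2%, 36.0% and 40.3%. With all stranded loci the promoter share was 3.24% and the intergenic share 40.2%. Peaks of at least 400 bp, an alternative chosen after seeing the data, gave 2.85% at promoters, 13.3% in exons and 40.6% in introns. The exon share was above and the promoter share below that of matched peaks under all 10 alternatives for each.

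The median level of the nearest loci, 78.9 normalised counts, was 106 with TMM-scaled counts rescaled to the mean library, 6.98 with the nearest span of any locus, 350.2 over loci tested by edgeR alone, and 76.4 to 80.3 with each library left out, chosen after seeing the data. At 5000 bp fewer loci were nearest, and the loci called numbered 1504 higher and 986 lower at T21 than T18, 902 and 478 at T20 than T18, and 479 and 308 at T21 than T20. Loci lower at T20 than T18 numbered 1999 with upper quartile scaling and 788 with libraries of both stages alone, and those lower at T21 than T20 528 with both stages alone. With each library left out in turn, loci higher and lower at T21 than T18 numbered 3048 to 4340 and 2177 to 3415, at T20 than T18 1522 to 2548 and 865 to 2108, and at T21 than T20 639 to 1672 and 393 to 1332. Where these counts moved by more than 1.5 times the cause was not tested.

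Deviations of same-numbered libraries from their stage means had correlations of -0.04 to 0.08. Each stage mean rests on 2 or 3 libraries, so whether same-numbered libraries shared a batch cannot be told from these values. Replicate 3 of T18 and of T21 had the most counts, 91015285 and 61222575, and T20 has no replicate 3. With a replicate block the counts were 3632 higher and 2707 lower at T21 than T18, 1828 and 1021 at T20 than T18, and 844 and 605 at T21 than T20. Of 932 values of named loci under alternatives, 891 kept direction and side of the threshold, 27 lost the call, 13 gained it and 1 changed sign. Alternatives that gave a locus no value are not counted, as for ETS1. Many of these loci were chosen as the largest changes past the threshold in the main fit, so high agreement was likely from the start. The sign changed at 1 locus. This was the Myg1 / lrrc3b / C12orf10 locus (XLOC_006770), whose log2 fold change of T21 over T18, 0.06, was -0.09 with upper quartile scaling and was called in neither. The peak lists hold no depth or signal, so strength, stage and replicate agreement of the peaks could not be examined.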
